A study of Homo sapiens and Mus musculus with 19 samples.

Results

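The genes of the mitochondrial ribosome and of the proteasome were followed in HepG2, a liver cancer cell line, and in H1ES, a human embryonic stem cell line. Members were all autosomal protein-coding genes whose symbol begins with MRPL, MRPS, PSMA, PSMB, PSMC or PSMD followed by a number. This gave 116 genes of 19126 autosomal protein-coding genes, spread over 22 chromosomes. By symbol, 77 count to the mitochondrial ribosome (49 MRPL and 28 MRPS) and 39 to the proteasome (8 PSMA, 11 PSMB, 7 PSMC and 13 PSMD). Symbols alone decided which genes were members, but the families were picked with earlier results of these data known. PSMD10, on the X chromosome, was left out, and PSMC3IP matched the pattern although its protein acts in meiotic recombination and is no proteasome subunit. PSMC3IP stayed in the PSMC and proteasome counts and pools below.

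The mitochondrial ribosome translates the few messages encoded by mitochondrial DNA, which are core parts of the respiratory chain, and all of its proteins are encoded in the nucleus. MRPL genes encode its large subunit and MRPS genes its small subunit. The proteasome is the protease that degrades ubiquitin-tagged proteins. PSMA and PSMB genes encode the alpha and beta rings of its barrel-shaped core, PSMC genes the ATPases of the cap that unfolds substrates, and PSMD genes the other cap subunits, ubiquitin receptors and assembly chaperones. Nearly all of these genes are active in every cell, and such genes typically start in a CpG-rich region free of methylation and carry 5-methylcytosine (5mC) along the transcribed part. A few proteasome genes are not used everywhere: PSMA8 replaces an alpha subunit in the testis, PSMB8, PSMB9 and PSMB10 encode the catalytic subunits of the immunoproteasome, and PSMB11 encodes the catalytic subunit of the thymoproteasome.

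DARESOME, the assay used, reads each CCGG site of the genome as unmethylated, 5mC or 5-hydroxymethylcytosine (5hmC) by cutting it with enzymes of different sensitivity and ligating a tag for each state. Libraries came from 1000 cells (2 of HepG2 and 2 of H1ES) and from single cells (5 of HepG2 and 5 of H1ES), with no treatment given. The 1000-cell libraries held 5977422 and 5146348 tags for HepG2, against 6644517 and 4911898 tags for H1ES. Over autosomal CCGG sites, unmethylated tags made up 39.1% and 38.0% in HepG2 and 4.73% and 4.24% in H1ES, so the lines differ over the whole genome and the results are set beside all genes. Of the stem cell markers, POU5F1, NANOG, L1TD1 and ZFP42 had mean unmethylated shares at the start of 5.21% to 43.8% in HepG2, against 81.3% to 90% in H1ES. Of the liver markers, HNF4A, APOC3, APOH, SERPINA1 and F2 had 39.6% to 91.1% in HepG2, against 0% to 2.78% in H1ES, while DPPA4, DNMT3B and APOA1 did not separate the lines. ALB and AFP had no tags, and LIN28A had none in 1 H1ES library, with 71.4% and 62.5% in HepG2 and 92.3% in the other H1ES library. HepG2 and H1ES differ in tissue of origin, malignancy and culture, and these cannot be told apart with 1 line of each. Nothing states that the 2 libraries of a line came from separate cultures, so p-values measure only the spread between these libraries, which may be technical.

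The start of a gene was taken as the window from 2000 bp upstream to 1000 bp downstream of its first base, and its body as the rest of the gene beyond that window. RefSeq start sequences gave the strand of 103 members. For the other 13 members the end with more CCGG sites stood in for the start, a choice that was right for 84.1% of 14248 genes of known strand, and they are marked below as placed by CCGG density. RefSeq lists several starts for 18 members, and in 8 of them, MRPL14, MRPL24, MRPL34, MRPL36, MRPL44, PSMA1, PSMA6 and PSMD2, a further start lies beyond the start window and so within the body. Closely packed CCGG sites, as in CpG-rich regions, were rarely tagged: where 10 or more CCGG lay within 500 bp, 7.73% to 8.95% of sites had a tag in a 1000-cell library, against 70.2% to 72.5% of isolated sites. Of 1487 CCGG sites in member starts, 35.1% were that crowded, against 53.5% over all genes.

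The start sequences below, from RefSeq on GRCh38.p14, show how differently the members present the assay's target, and CCGG is in capitals. They run from 250 bp before to 50 bp after an annotated start. PSMB11 is a tissue-restricted member whose body differed strongly between the lines, PSMB5 is the everyday neighbour of PSMB11 and is shown at a RefSeq start 320 bp inside the gene, the PSMA2 sequence holds the starts of both PSMA2 and MRPL32, and MRPL38, MRPL55 and MRPS35 are members whose start windows were less methylated in HepG2. PSMB5 and PSMA2 were chosen after their values were seen.
PSMB11 (chr14:23041962-23042261, plus strand): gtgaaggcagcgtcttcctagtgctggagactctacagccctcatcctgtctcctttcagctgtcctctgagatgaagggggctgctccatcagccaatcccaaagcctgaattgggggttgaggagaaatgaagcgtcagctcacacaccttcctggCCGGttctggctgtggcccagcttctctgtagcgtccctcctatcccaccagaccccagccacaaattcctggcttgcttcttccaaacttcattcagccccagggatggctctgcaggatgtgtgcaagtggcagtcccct
PSMB5 (chr14:23034851-23035150, minus strand): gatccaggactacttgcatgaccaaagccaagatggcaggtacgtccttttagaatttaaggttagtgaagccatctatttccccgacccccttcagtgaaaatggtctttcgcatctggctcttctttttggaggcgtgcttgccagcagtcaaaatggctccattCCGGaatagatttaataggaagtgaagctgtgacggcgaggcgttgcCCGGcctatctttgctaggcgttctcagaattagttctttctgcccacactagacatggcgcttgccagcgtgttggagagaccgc
PSMA2 (chr7:42932125-42932424, minus strand): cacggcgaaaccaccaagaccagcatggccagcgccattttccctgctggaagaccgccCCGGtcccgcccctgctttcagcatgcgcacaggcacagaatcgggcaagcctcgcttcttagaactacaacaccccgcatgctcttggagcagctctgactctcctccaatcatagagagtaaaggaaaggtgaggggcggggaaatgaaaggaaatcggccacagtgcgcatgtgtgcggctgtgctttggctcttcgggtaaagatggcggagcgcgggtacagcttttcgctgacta
MRPL38 (chr17:75904835-75905134, minus strand): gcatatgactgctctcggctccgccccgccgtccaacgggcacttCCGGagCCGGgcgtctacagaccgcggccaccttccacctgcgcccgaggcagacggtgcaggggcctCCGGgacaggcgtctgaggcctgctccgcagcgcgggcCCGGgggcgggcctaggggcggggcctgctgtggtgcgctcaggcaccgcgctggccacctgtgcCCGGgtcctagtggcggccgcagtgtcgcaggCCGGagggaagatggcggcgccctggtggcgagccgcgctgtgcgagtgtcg
MRPL55 (chr1:228109250-228109549, minus strand): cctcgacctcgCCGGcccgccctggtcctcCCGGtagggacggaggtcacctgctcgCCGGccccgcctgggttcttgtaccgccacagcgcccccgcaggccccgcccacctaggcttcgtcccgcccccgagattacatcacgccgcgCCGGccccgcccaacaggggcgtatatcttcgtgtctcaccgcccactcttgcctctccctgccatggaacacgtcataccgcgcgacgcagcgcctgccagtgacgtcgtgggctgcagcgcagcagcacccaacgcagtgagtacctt
MRPS35 (chr12:27710582-27710881, plus strand): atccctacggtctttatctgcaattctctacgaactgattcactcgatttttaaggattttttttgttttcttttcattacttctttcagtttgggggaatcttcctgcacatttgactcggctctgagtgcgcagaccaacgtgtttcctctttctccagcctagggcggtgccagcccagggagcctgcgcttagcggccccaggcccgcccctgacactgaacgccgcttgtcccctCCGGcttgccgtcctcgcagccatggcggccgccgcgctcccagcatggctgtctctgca

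CCGG, which reads the same on both strands, occurred in the start sequence of 85 of 94 members whose RefSeq start is exactly the first base of the gene (90.4%), against 76.2% of 13150 such genes. PSMB11 had 4 CpG in this window and MRPL38 had 36. None of the 6 CCGG of the MRPL38 sequence and neither the 1 CCGG of MRPS35 nor the 1 CCGG shared by PSMA2 and MRPL32 received a tag in any 1000-cell library, so the values of these starts come from other sites of the wider window. In PSMB5, the CCGG 81 bp before that inner start gave 14 and 5 tags in HepG2 and 3 and 3 tags in H1ES, all unmethylated. In PSMB11, the CCGG 91 bp before the start was 5mC in 8 of 13 HepG2 tags and in 9 of 10 H1ES tags.

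Member bodies were nearly fully methylated in both lines, while the bodies of most genes carried less 5mC in HepG2 than in H1ES. Pooled over all member bodies, the 5mC share was 93.2% and 93.2% in the HepG2 libraries, against 97.2% and 97.1% in the H1ES libraries. Over all genes it was 73.1% ± 0.567 in HepG2 and 95.1% ± 0.324 in H1ES (SD, n = 2 each). Both lines were therefore close to full methylation in member bodies, and the groups did not overlap. The mean difference was -3.97 percentage points for members and -22.0 points for all genes, and without PSMA8 and PSMB11, a choice made after seeing their values, it was -2.64 points for the members.

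Per gene, 61 members had at least 20 body tags in every library and tags of more than 1 state, so that 5mC tags could be tested against the others. Another 3 members, MRPL30, MRPL35 (placed by CCGG density) and PSMD7, had enough tags and every one of them was 5mC in both lines. The remaining 52 members had fewer tags, among them 6 without a CCGG in the body. By edgeR's quasi-likelihood test with Benjamini-Hochberg adjustment over 13654 genes, 5mC fell in HepG2 in 14 of the 61 members and rose in none, while 55.5% of all genes tested fell and 2.7% rose. The members' median difference was -1.96 points, against -6.71 points over all genes tested. Their median shares were 96.8% in HepG2 and 98.8% in H1ES, against 86.5% and 97.0% over all genes. Members had a median of 62.5 tags per library and all genes 120.5 tags, and the part of this gap in the counts was not tested.

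**Figure D1:**
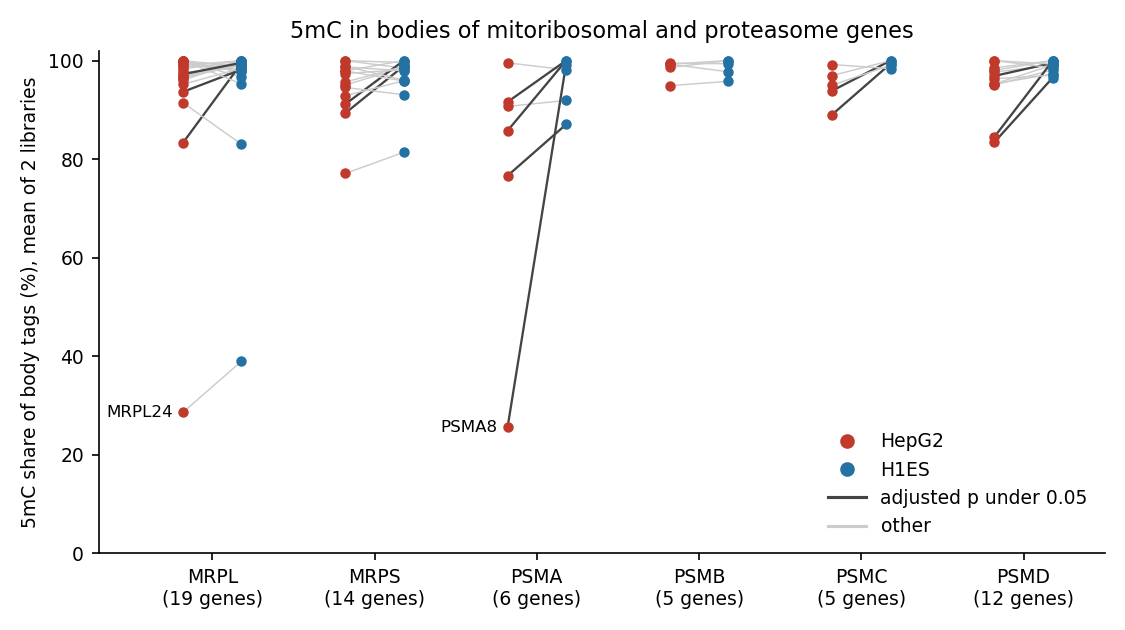
5mC share of body tags for the 61 members tested, by subfamily, each point the mean of 2 libraries of 1000 cells (HepG2 left, H1ES right) and each line a gene. Most members lie above 90% in both lines, PSMA8 drops to 25.6% in HepG2 and MRPL24 is low in both lines.

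Whether a member counts as lower in HepG2 depends on what it is compared with. When each gene's odds were taken relative to those of its own library, which put the median log2 odds ratio of all genes at -0.10 in place of -1.96, PSMD4, PSMA8 and MRPL23 were the 3 members lower in HepG2 and 12 were higher, among them PSMA6, which was lower on the plain scale. Over all genes this setting called 3095 higher and 4486 lower. The number of members that fell was 7 to 11 when 1 of the 4 libraries was left out and 6 by DESeq2. It was 7 of 54, with a median difference of -1.21 points, when the body was taken beyond 2000 bp. With windows around RefSeq starts inside the body left out, a setting added after the data were seen, it was 10 of 57. Over all genes 7023 of 13061 fell beyond 2000 bp and 7480 of 13466 without those windows. DESeq2 called 6385 of 13654 genes lower, against 7578 in the main test.

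In the alpha ring of the proteasome core, 4 of 6 tested members fell (66.7%, against 55.5% of all genes). PSMA8 was 5mC in 22.2% and 28.9% of body tags in HepG2, against 99.3% and 99.0% in H1ES (adjusted p = 4.7e-50), and the difference of -73.6 points was the largest of any member tested. PSMA6 had 74.2% and 79.0% in HepG2, against 88.1% and 86.0% in H1ES (adjusted p = 0.0026). The groups were apart, but this call was lost with DESeq2, with limma and when H1ES library 1 or HepG2 library 1 was left out. RefSeq places 2 further PSMA6 starts 13759 and 13824 bp inside the gene, and without the windows around them the body had 91.6% and 92.6% in HepG2, against 98.2% and 98.75% in H1ES (adjusted p = 0.0021). PSMA4 and PSMA5, also of the alpha ring, fell to means of 85.8% and 91.6% in HepG2, against no tag other than 5mC among the 63 and 72 tags of H1ES. PSMA1 is the alpha-ring member with the most tags among those that did not pass, at 89.5% and 91.9% in HepG2 and 90.4% and 93.5% in H1ES. Without the window of its inner start it had 97.6% and 98.7% in HepG2 and 98.4% and 98.5% in H1ES.

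No tested beta-ring member passed. PSMB7, the trypsin-like catalytic subunit (placed by CCGG density), had 92.7% and 97.1% in HepG2 and 96.5% and 95.05% in H1ES, ranges that overlap. PSMB5, the chymotrypsin-like catalytic subunit, had 98.6% and 100% in HepG2 and 98.0% and 97.5% in H1ES.

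In the cap, 2 of 5 ATPase genes (40%) and 3 of 12 PSMD genes (25%) fell, against 55.5% of all genes. PSMC2 had 87.9% and 90.2% in HepG2, against 98.8% and 100% in H1ES (adjusted p = 0.0019), and PSMC1 had 95.5% and 92.3% in HepG2, against 100% in both H1ES libraries. PSMD4, a ubiquitin receptor (placed by CCGG density), had 77.9% and 91.1% in HepG2, against 100% in both H1ES libraries. That difference of -15.5 points had an adjusted p of 1.8e-06, and 0 of 140 tags other than 5mC in H1ES allows a share of up to 2.14%. PSMD6 and PSMD11 fell by 13.1 and 2.64 points, PSMD11 with an adjusted p of 0.049. PSMD1, a cap scaffold and the uncalled member with most tags, had 97.7% and 97.6% in HepG2 and 98.8% and 99.4% in H1ES. PSMD9, an assembly chaperone, had 97.0% and 95.6% in HepG2 and 96.1% and 97.9% in H1ES.

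Among the mitochondrial ribosome genes 5 of 33 fell (15.2%, against 55.5% of all genes), 3 of the large and 2 of the small subunit. MRPL23, a protein of the large subunit near the exit of the peptide tunnel (placed by CCGG density), had 83.3% in both HepG2 libraries, against 98.9% and 100% in H1ES (adjusted p = 1.9e-06). MRPS18A had 89.2% and 89.5% in HepG2, against 97.8% and 100% in H1ES (adjusted p = 0.013). The MRPS18A value rests on sites shared with another gene: without them the log2 odds ratio was 0.55, with an adjusted p of 0.87. MRPS25, MRPL37 and MRPL48 fell by 8.84, 4.53 and 2.3 points. MRPL48 had the most body tags of these, with 97.6% and 96.9% in HepG2, against 99.5% and 99.6% in H1ES (adjusted p = 0.0045).

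Several member bodies were at full methylation in HepG2. MRPL4, MRPL10 (placed by CCGG density), MRPL21 (placed by CCGG density), MRPL3, MRPS35, MRPS11, PSMD8 and PSMD13 had 100% in both HepG2 libraries, against 93.3% to 100% in the H1ES libraries. MRPL34, which had the largest difference in the other direction, reached 93.1% and 89.8% in HepG2 and 90.5% and 75.5% in H1ES (adjusted p = 0.2). The group ranges of MRPL34 overlap, and its body holds 3 further RefSeq starts, without whose windows it had 92.9% and 100% in HepG2 and 95.5% and 100% in H1ES. Genes in this paragraph were chosen after their values were seen.

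MRPL24, a large-subunit gene, had a low body share in both lines, and its body holds another RefSeq start 1628 bp inside the gene. Its body was 5mC in 36.4% and 20.8% of tags in HepG2 and in 39.5% and 38.5% in H1ES (adjusted p = 0.42), from 22 to 38 tags per library. Within 50 kb of the gene the 5mC share was 74.9% and 76.0% in HepG2 and 88.2% and 88.7% in H1ES. Without the window of the inner start, 5mC made up all of 8 and 3 tags in HepG2 and 100% and 87.5% of 8 and 8 tags in H1ES. The start window at the first base of MRPL24 held 0% unmethylated tags in both HepG2 libraries and 2.94% and 0% in H1ES. MRPL24 was chosen after its values were seen.

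Pooled shares show how the subfamilies differed. The 5mC share of bodies was 95.5% ± 0.664 in HepG2 and 97.1% ± 0.0147 in H1ES for MRPL, and 96.2% ± 0.643 and 97.1% ± 0.382 for MRPS (SD, n = 2 each). For PSMD genes it was 95.8% ± 0.241 in HepG2 and 98.7% ± 0.298 in H1ES, and for PSMC genes 94.3% ± 1.85 and 99.3% ± 0.386. The PSMB genes had 91.7% ± 0.671 in HepG2 and 96.1% ± 0.718 in H1ES. The PSMA genes had 80.1% ± 2.43 in HepG2 and 94.7% ± 0.0513 in H1ES. Without PSMA8 and PSMB11, the difference of -14.6 points for PSMA genes became -7.29 and that of -4.48 points for PSMB genes became -0.802. Differences between subfamilies were not tested.

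As a pool, the tissue-restricted paralogues stood far below the rest in HepG2, and PSMA8 gave the most HepG2 tags to this pool (81 and 76). Pooled, the 5 genes PSMA8, PSMB8, PSMB9, PSMB10 and PSMB11 had a body 5mC share of 33.4% ± 0.671 in HepG2 and 93.7% ± 0.349 in H1ES, while the other 34 proteasome genes had 93.5% ± 0.635 and 97.5% ± 0.0664 (SD, n = 2 each). The 5 genes did not behave alike. PSMB11 was 5mC in 13% and 16% of 23 and 25 tags in HepG2, against 100% of 6 and 10 tags in H1ES, too few for the test. PSMB9 had 76.2% and 66.7% in HepG2, against 85.7% and 100% in H1ES, from 7 to 21 tags. PSMB8 was 5mC in every tag of both lines, 20 in HepG2 and 10 in H1ES. PSMB10 was the opposite, at 0% and 11.1% in HepG2 and 10% and 0% in H1ES, from 7 to 12 tags in a gene of 2 tagged body sites. Only PSMA8 of the 5 had enough tags for the test.

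Site by site, the low share of PSMA8 in HepG2 ran along the gene. PSMA8 spans 59487 bp on chromosome 18, from 26133869 to 26193355 on the plus strand of GRCh38, and 19 of its 32 body CCGG sites had at least 3 tags in each line. All 19 sites had a lower 5mC share in HepG2, and 16 were below 50% there, against 0 in H1ES. The HepG2 site shares ran from 0% to 76.9% with a median of 0%, against 88.9% to 100% in H1ES with a median of 100%. Its surroundings within 50 kb were also low in HepG2, at 31.7% and 37.7%, against 84.9% and 94.4% in H1ES.

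PSMB11 and PSMB5 lie on chromosome 14, and the start of PSMB11 is 6992 bp from the nearest end of PSMB5. Their bodies were far apart in HepG2, at 98.6% and 100% for PSMB5 and 13% and 16% for PSMB11, while in H1ES both were at or above 97.5%. In PSMB11, the CCGG 1358 bp after the start was 5mC in 0 of 30 HepG2 tags, against 13 of 13 H1ES tags, and the CCGG at 1703 bp in 7 of 18 HepG2 tags, against 3 of 3 H1ES tags. The CCGG at 431 bp, in the start window, was 5mC in 31 of 40 HepG2 tags and 11 of 14 H1ES tags. The surroundings of PSMB11 were at 79.9% and 79.5% in HepG2 and 88.1% and 91.9% in H1ES. This stretch also gave more tags in HepG2: PSMB5 had 138 and 117 body tags there, against 49 and 40 in H1ES. PSMA6, on the same chromosome, had 295 and 286 in HepG2, against 134 and 100 in H1ES. The chromosome did not behave as a whole: MRPL52 had 70 and 63 in HepG2, against 23 and 18 in H1ES, but PSMA3 had 108 and 91 in HepG2 and 108 in both H1ES libraries.

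**Figure D2:**
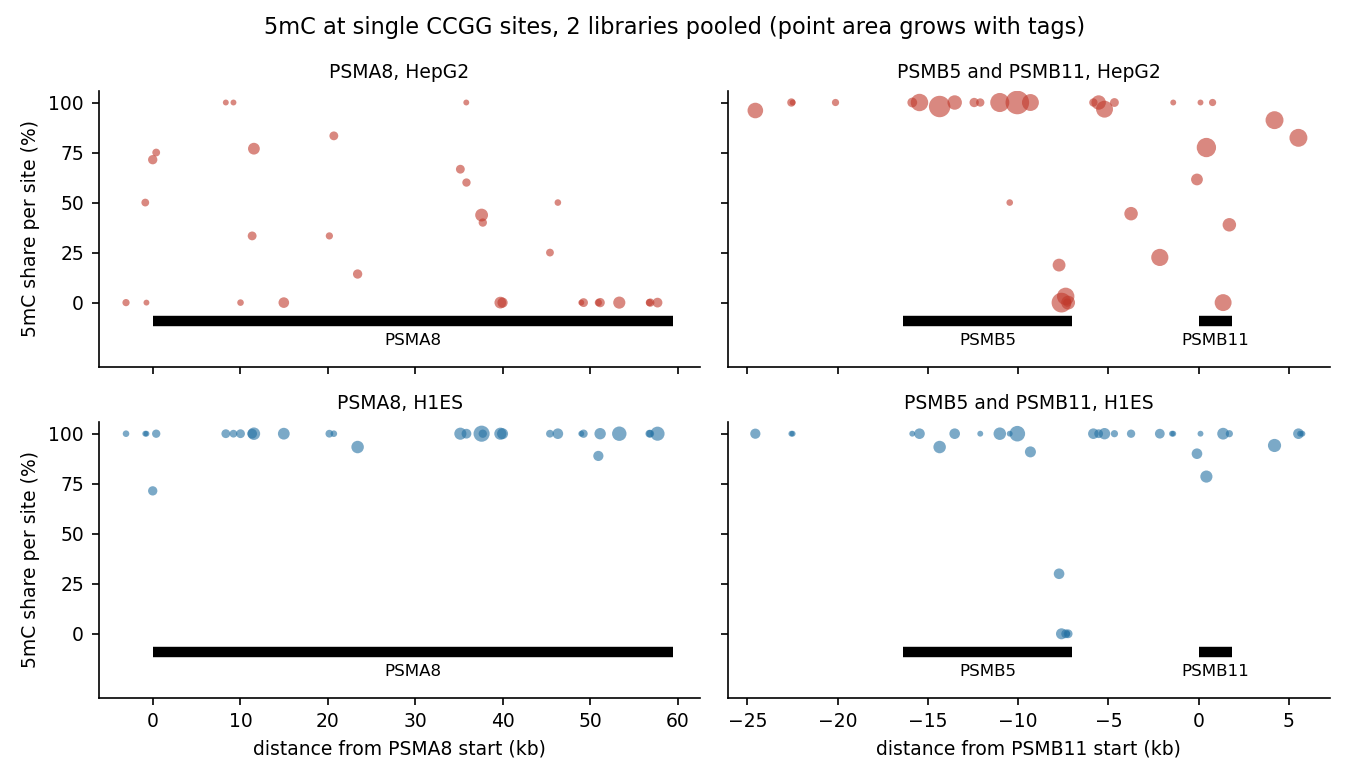
5mC share at single CCGG sites against the distance from the start of PSMA8 (left) and of PSMB11 (right), for HepG2 (upper row) and H1ES (lower row), with 2 libraries pooled, point area growing with the tag number and black bars for genes. PSMA8 sites reach a median of 0% in HepG2 and 100% in H1ES, and the PSMB5 body stays methylated in both lines beside a low PSMB11 in HepG2.

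Member bodies stood out from the DNA around them. For the 61 tested members the median body share in HepG2 was 96.8% and the median share of the 50 kb on each side 71.6%, while in H1ES these were 98.75% and 93.6%. In HepG2, 57 of the 61 bodies (93.4%) were more methylated than their surroundings, against 69.8% of 13541 genes. A body share of 90% or more was found in 51 of 61 members (83.6%) in HepG2, against 45.0% of all genes. In H1ES it was found in 57 of 61 members (93.4%) and in 86.2% of all genes. PSMA8 and MRPL24 were the only 2 tested members below 50% in HepG2 (3.28%, against 20.4% of all genes), MRPL24 with its inner start included.

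Member starts held more unmethylated tags in HepG2 than in H1ES. As over all genes, the difference lay at the edges of the start window more than at its centre. From 0 to 250 bp downstream the members went the other way, at 87.5% and 92.0% in HepG2 and 95.6% in both H1ES libraries. All genes had 76.9% and 76.1% there in HepG2 and 69.7% and 67.8% in H1ES. Pooled over members, the start window was unmethylated in 63.7% and 61.7% of tags in HepG2, against 49.1% and 46.8% in H1ES. Over all genes it was 58.3% ± 0.985 in HepG2 and 40.7% ± 1.28 in H1ES (SD, n = 2 each). Within 500 bp of the start, the 103 members of known strand had 85.7% ± 0.22 in HepG2 and 83.6% ± 0.752 in H1ES. All 15101 genes of known strand had 75.1% ± 0.629 and 65.9% ± 1.08. From 500 to 1000 bp downstream the share was 78.1% ± 1.89 in HepG2 and 48.0% ± 4.22 in H1ES, against 68.2% ± 0.871 and 49.5% ± 0.851 for all genes. From 2000 to 500 bp upstream it was 35.8% ± 3.85 in HepG2 and 17.3% ± 0.952 in H1ES, against 42.8% ± 1.04 and 18.4% ± 0.987 for all genes. Upstream the difference was thus smaller for members (18.5 points) than for all genes (24.5 points).

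Beyond the start window the members' unmethylated share dropped with distance. From 1000 to 1250 bp it was 31.4% and 45.2% in HepG2 and 11.8% and 20.3% in H1ES, while over all genes it was 53.9% and 52.0% in HepG2 and 30.5% and 30.6% in H1ES. Over the whole stretch from 1000 to 5000 bp downstream 9.17% ± 1.19 of tags were unmethylated in HepG2 and 3.22% ± 0.458 in H1ES, against 29.2% ± 0.851 and 11.3% ± 0.35 over all genes (SD, n = 2 each). In every 250 bp step from 2250 to 5000 bp, members had 0% to 6.25% unmethylated tags in the HepG2 libraries and 0% to 1.45% in the H1ES libraries. All genes had 20.2% to 28.0% in HepG2 and 4.62% to 9.32% in H1ES over the same steps. The differences between members and all genes were not tested.

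**Figure D3:**
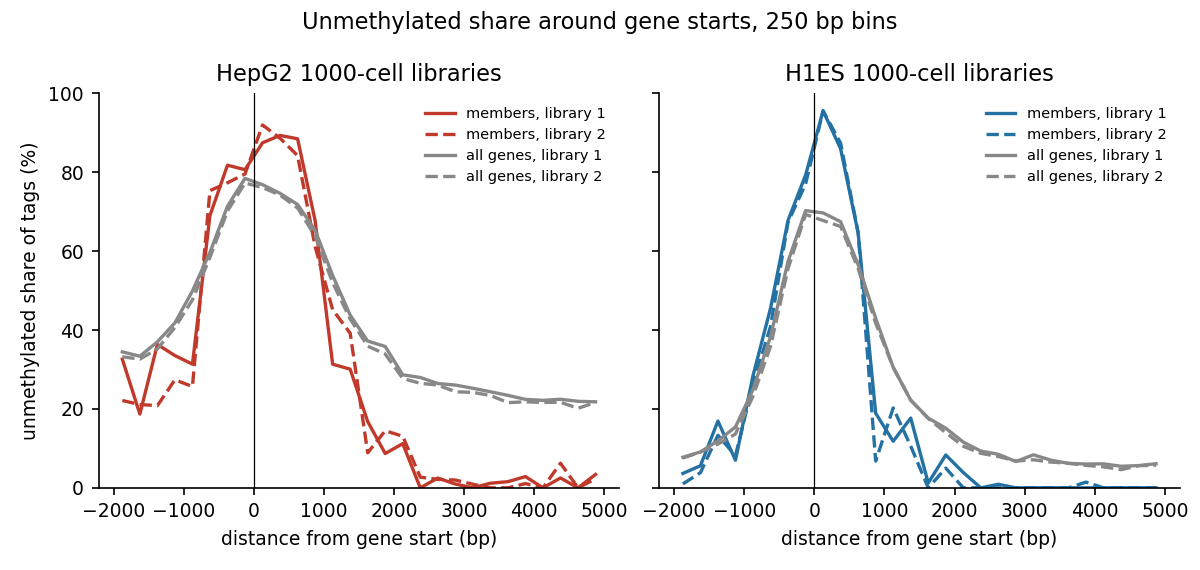
Unmethylated share of tags in 250 bp steps against the distance from the gene start, for HepG2 (left) and H1ES (right), with 1 line per 1000-cell library, for 103 members (colour) and 15101 genes (grey). The members' zone is wider in HepG2 than in H1ES, 78.1% against 48.0% at 500 to 1000 bp, and beyond 2250 bp it holds at most 6.25% in HepG2 and 1.45% in H1ES, below the grey lines.

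Per gene, 60 members had at least 10 start tags in every library. The unmethylated share rose in HepG2 in 16 of them and fell in none by edgeR's quasi-likelihood test with Benjamini-Hochberg adjustment over 7675 genes, while 36.9% of all genes tested rose and 3.93% fell. The median difference was 13.1 points for members and 15 points for all genes tested. The calls came from 14 of 37 mitochondrial ribosome genes and 2 of 23 proteasome genes, and the difference between these counts was not tested. Leaving out either H1ES library left 0 calls among members and 0 among all genes, with 16 members (without H1ES library 1) and 17 (without H1ES library 2) at an unadjusted p under 0.05, and leaving out HepG2 library 1 or 2 left 7 and 8 calls. The narrow window of 500 bp on each side gave 1 call among 14 members tested, and odds relative to each library gave 7 rises and no fall.

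Among the large-subunit genes, MRPL21 (placed by CCGG density) was unmethylated in 79.6% and 92.9% of start tags in HepG2, against 26.2% and 20.5% in H1ES (adjusted p = 2.4e-05). MRPL38 had 70.3% and 66.7% in HepG2, against 27.3% and 4.0% in H1ES (adjusted p = 0.00067). MRPL55 reached 96.0% and 95.2% in HepG2, against 51.6% and 61.1% in H1ES (adjusted p = 0.00097). These 3 starts, called on the same libraries, had no overlap between the lines. MRPL12, whose protein sits in the stalk that recruits translation factors, rose by 36.8 points, MRPL49 by 32.2 and MRPL45 by 27.3 points. MRPL53, the large-subunit start with the most tags, had 57.1% and 58.0% in HepG2, against 25.7% and 33.3% in H1ES (adjusted p = 0.0074).

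Among the small-subunit genes, MRPS35 had 94.7% and 96.2% in HepG2, against 66.7% and 33.3% in H1ES (adjusted p = 0.0025). MRPS31 had 74.1% and 62.5% in HepG2, against 36.4% and 25% in H1ES (adjusted p = 0.011). The H1ES libraries of MRPS35 lay far apart, from 12 and 15 tags. MRPS22, MRPS6, MRPS21, MRPS23 and MRPS18C rose by 18.7 to 34.6 points, and the MRPS6 window also holds the start of SLC5A3 on the same strand. MRPS26, with the most tags of the small-subunit starts, had 76.8% and 75% in HepG2 and 71.7% and 76.2% in H1ES and did not pass.

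The 2 proteasome calls were cap genes. PSMD4 (placed by CCGG density) had 57.1% and 50% unmethylated tags in HepG2, against 0% in both H1ES libraries, where 0 of 31 tags allows up to 9.68% (adjusted p = 0.00073). PSMD11 had 15.4% and 50% in HepG2, against 0 of 23 tags in H1ES (adjusted p = 0.021). The HepG2 values of PSMD11 came from 13 and 10 tags at 2 sites.

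**Figure D4:**
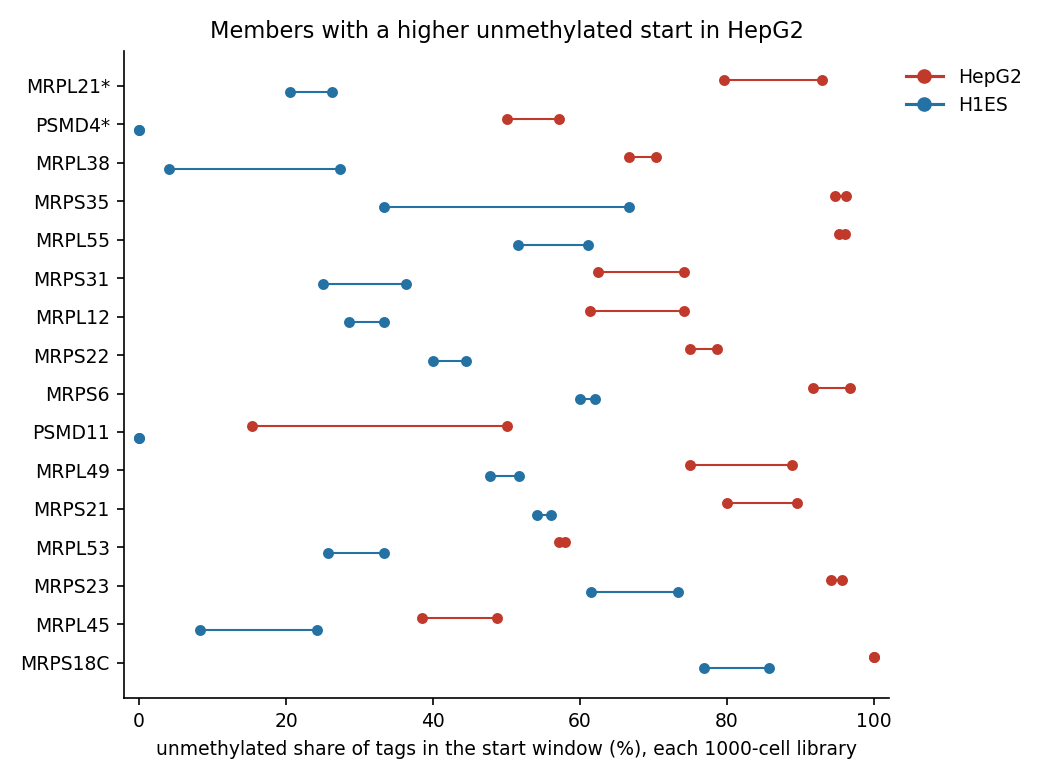
Unmethylated share of start tags in each 1000-cell library for the 16 members that rose in HepG2 (HepG2 above H1ES in each row), with a star for members placed by CCGG density. In all 16 rows both HepG2 points lie right of both H1ES points. The rows were picked by a test on these same libraries, so this separation is no further evidence.

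No member start passed in the other direction. The lowest differences were those of PSMB1 (placed by CCGG density), MRPS25, PSMA1, PSMA5, PSMC4 and MRPL15 (placed by CCGG density), from -7.54 to -4.17 points, with adjusted p from 0.3 to 0.75. The group ranges overlapped or touched for all but PSMA5. PSMB1 had 94.4% and 83.3% in HepG2 and 100% and 92.9% in H1ES, and PSMA5 had 88% and 88.2% in HepG2 and 95.2% and 92.9% in H1ES. PSMB5 and PSMD1, the beta-ring and PSMD starts with the most tags, did not pass either. PSMB5 had 69.7% and 59.2% in HepG2 and 55.0% and 40.9% in H1ES (adjusted p = 0.13), and PSMD1 had 18.4% and 43.6% in HepG2 and 45.5% and 21.1% in H1ES. The PSMD1 libraries of a line lay as far apart as those of different lines.

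The remaining 56 starts had under 10 tags in at least 1 library and were not tested. PSMC3, an ATPase gene of the cap, had 82.6% and 83.3% of 23 and 6 tags unmethylated in HepG2, against 23.8% and 40% of 21 and 15 tags in H1ES. MRPL1, chosen after its values were seen, was unmethylated in all of 6 and 6 tags in HepG2, against 0 of 8 and 1 of 11 tags in H1ES, at 1 tagged site.

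The tissue-restricted members differed among themselves at the start. PSMB11 had 26.7% and 21.4% over its start window in HepG2 and 14.3% and 7.69% in H1ES (adjusted p = 0.28). PSMA8 had 37.5% in both HepG2 libraries and 28.6% and 0% in H1ES, from 7 or 8 tags. PSMB8, PSMB9 and PSMB10 had mean shares of 29.2%, 44.6% and 35.6% in HepG2 and 50%, 41.4% and 47.6% in H1ES, with under 10 tags in at least 1 library.

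Members often shared their start region with another gene. Of 103 members of known strand, 29 (28.2%) had another protein-coding start within 1000 bp, 28 of them on the opposite strand, against 15.3% of 15101 genes. In 2 cases both partners were members. PSMA2 and MRPL32, on chromosome 7, join a core subunit of the proteasome and a large-subunit protein of the mitochondrial ribosome, and both of their starts lie within the PSMA2 sequence above. PSMA2 had 80.0% and 58.3% unmethylated tags in HepG2 and 73.3% and 37.5% in H1ES, and MRPL32 had 87.5% and 100% in HepG2 and 100% and 75% in H1ES. MRPL46 and MRPS11, on chromosome 15, are the other pair, with 8 or 9 and 2 to 6 start tags per library. The immunoproteasome gene PSMB9 shares its start region with TAP1, a peptide transporter of antigen presentation. Windows of such pairs overlap, so their values are not independent.

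5hmC was rare in member bodies. Pooled, it made up 0.38% and 0.558% of body tags in HepG2, against 0.912% and 0.923% in H1ES. Over all genes it was 0.307% ± 0.0511 in HepG2 and 1.64% ± 0.127 in H1ES (SD, n = 2 each). By edgeR's quasi-likelihood test 0 of 51 members passed, against 17.1% of 12542 genes that fell and 0% that rose. At an unadjusted p under 0.05 were 2 members and 3636 of all genes tested. DESeq2 also called 0 members and limma called 1, which fell. Another 13 of 64 members with enough tags had no 5hmC tag and were not fitted. Tested members had a median of 69.75 tags per library and a median H1ES share of 0.974%, while all genes had 133 tags. With at least 50 tags in every library 0 of 29 members passed, while 2347 of 9803 genes fell. The part of tag number in these 0 calls was not tested, so they are not read as setting members apart from all genes. Among members with at least 50 tags in every library, the highest H1ES shares were those of PSMB7, PSMD3, MRPL34, MRPS31, PSMD12 and PSMA3. PSMB7 had 0% and 0.719% in HepG2 and 2.89% and 2.97% in H1ES, and PSMD3 had 0 of 247 tags in HepG2 and 2.44% and 2.94% in H1ES. The groups were apart for both genes, with adjusted p of 0.15 for PSMB7 and 0.13 for PSMD3 by edgeR, from at most 5 tags per library. MRPL34 and MRPS31 had means of 0.847% and 0.641% in HepG2 and 2.41% and 2.06% in H1ES. PSMD12 and PSMA3, a cap and an alpha-ring gene, had 0.435% and 0% in HepG2 and 1.87% and 1.85% in H1ES, and neither passed.

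Single cells gave member shares near those of the 1000-cell libraries. Pooled over 5 cells, member bodies were 5mC in 93.0% of 6664 tags in HepG2 (exact Clopper-Pearson 95% interval 92.3% to 93.6%) and in 96.9% of 4717 tags in H1ES (96.4% to 97.4%). By cell, the share ran from 92.6% to 94.2% in HepG2 and from 96.2% to 97.1% in H1ES, with no overlap. Over all genes it ran from 71.5% to 74.8% in HepG2 cells and from 94.9% to 95.5% in H1ES cells, also with no overlap. Member starts were unmethylated in 60.7% of 2437 tags in HepG2 (58.8% to 62.7%) and in 44.9% of 1671 tags in H1ES (42.5% to 47.4%). Over all genes the pooled start shares were 57.2% in HepG2 and 39.2% in H1ES. The intervals cover counting error only, and since the labels name no culture or animal of origin for the cells, no test was made. The PSMA8 body was 5mC in 30.5% of 95 tags in the HepG2 cells, against 100% of 79 tags in the H1ES cells. The PSMB11 body was 5mC in 27.5% of 51 tags in the HepG2 cells, against 81.8% of 11 tags in the H1ES cells.

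**Figure D5:**
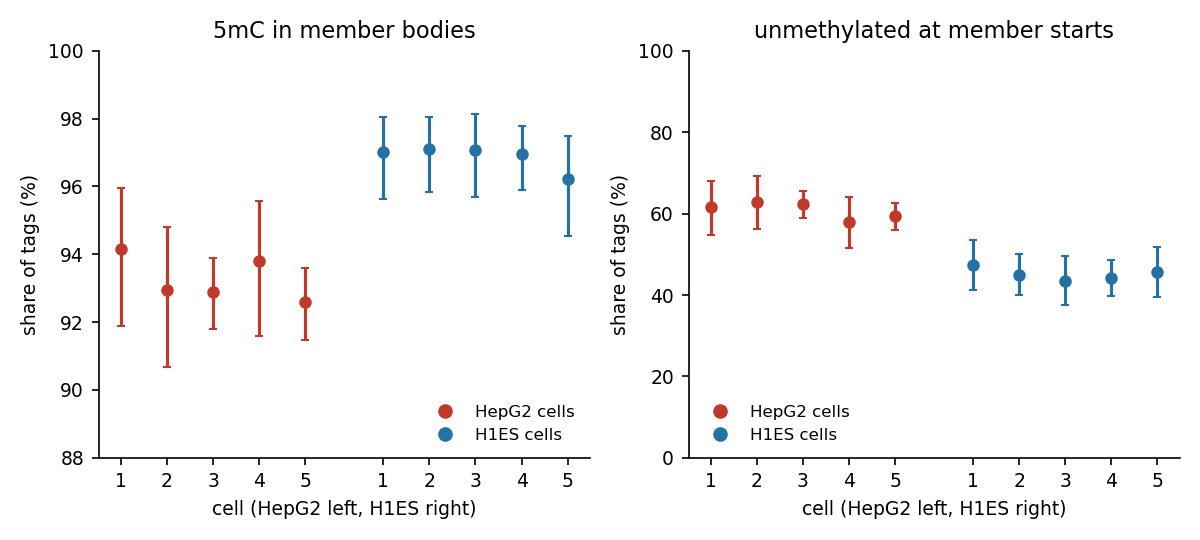
Share of 5mC tags in member bodies (left panel, axis from 88% to 100%) and of unmethylated tags at member starts (right panel) for each of 5 HepG2 cells and 5 H1ES cells, with exact 95% intervals. HepG2 cells lie between 92.6% and 94.2% in bodies, below all H1ES cells, and above them at the starts. Over all genes, not drawn, the cells of the lines also lay apart in both measures.

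Further genes of both pathways, which are no members, were read the same way, beside all genes, of which 55.5% fell and 2.7% rose in body 5mC and 36.9% rose at the start. Of 24 further genes of mitochondrial translation, 16 could be tested in the body: 5mC fell in 8 and rose in 1, and 6 of 12 tested starts rose in unmethylated share. MTRF1, a release factor, had a mean body share of 73.7% in HepG2 and 98.1% in H1ES, and GFM1, an elongation factor, had 99.2% in HepG2 and 87.3% in H1ES. Of 18 further proteasome activators, chaperones and regulators, 3 of 13 tested bodies fell and 3 of 9 tested starts rose. SEM1, a small cap subunit, had a mean body share of 67.0% in HepG2 and 97.0% in H1ES, and the start of ECPAS, a proteasome-associated scaffold, was unmethylated in 95% of tags in HepG2 and 27.9% in H1ES. The genes named here were chosen after their values were seen.

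The cytosolic ribosomal proteins, another family used in every cell, differed from the members in level. Their pooled body share was 78.8% ± 1.31 in HepG2 and 89.3% ± 0.164 in H1ES (SD, n = 2 each), with 6 of 23 tested bodies lower in HepG2 and a median difference of -5.88 points. The part of bodies called lower, 26.1%, was close to that of the members (14 of 61). Over all genes 55.5% were called lower. In HepG2, 14 of 23 of these bodies (60.9%) were more methylated than their surroundings, against 57 of 61 members and 69.8% of all genes. Of 52 tested starts 10 rose and 1 fell. Among members 16 of 60 starts rose, and over all genes 36.9% rose and 3.93% fell. These are descriptions of the lists, and the difference from the members was not tested.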

How the data were processed

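DARESOME profiles of CCGG sites on hg38 were used for 14 human libraries: 2 HepG2 and 2 H1ES libraries of 1000 cells, and 5 single cells of each line. Mouse cerebellum libraries were not used. Per the submitters' processing notes, cutadapt 1.5, UMI-tools 0.5.4 and Bowtie2 2.3.4.1 were run; how tags were deduplicated and counted is not given in the sources used here. The deposited files give, per site, the fraction of tags that are unmethylated, 5mC and 5hmC and a tag count, which the authors computed; the files carry no header, and the order of the fractions was taken from their levels. Their product gave whole tags, at most 0.00141 off in the 1000-cell libraries, and these tags were summed per gene.

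Gene spans, strands and start sequences came from RefSeq tables (GRCh38.p14). All 69333 CCGG of the autosomal start sequences lie at listed sites. In the 1000-cell libraries, tags of one state were tested against the other tags of the same gene and library with edgeR 4.0.16 (quasi-likelihood, HepG2 against H1ES, a term per library) on all autosomal protein-coding genes with at least 20 body or 10 start tags in every library, adjusted by Benjamini-Hochberg, threshold 0.05. DESeq2 1.42.0 and limma 3.58.1 were alternatives, and the test was tried on simulated data. Differences of shares are in percentage points, and an SD is over 2 libraries. A fitted odds ratio with a count of 0 in one group depends on the prior count and is not printed. Between replicates, the states of tags differed little beyond counting noise (chi-square per gene 1.05 in HepG2 and 1.04 in H1ES). Total tags per gene differed beyond it in H1ES (2.47) but little in HepG2 (1.02). Both libraries of each line were kept, although neither measure set the 2 HepG2 libraries clearly apart.

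The members, lists and named genes were chosen with earlier results of these data known. Named by rule were the 5 tissue-restricted genes, the 6 largest called falls of body 5mC with at least 50 tags and no overlap, the 4 uncalled bodies with most tags, the 6 largest start differences each way, the start with most tags in each subfamily and the 6 highest H1ES 5hmC shares at 50 or more tags in every library; other called members are named because they were called.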

Additional observations from a re-analysis of the deposited data

Results flagged for a closer look

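Among the 5 H1ES single cells, 1 cell lay apart from the other 4 in the 5mC share of member bodies, at 96.2% of 715 tags, while the others ran from 96.95% to 97.1%. The gap was 0.841 of the whole range, above the limit of 0.71 for 5 values, and chance sets apart about 1 in 20 such groups, of which 6 were examined. The exact 95% interval of that cell, 94.6% to 97.5%, contains the values of the other 4 cells. It was also the shallowest H1ES cell, with 757767 tags.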

How the results depend on the processing

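Low tag numbers limit the single genes: a start call rests on as few as 10 tags per library. Member body 5mC called lower: DESeq2 6, bodies beyond 2000 bp 7, relative odds 3, windows of inner RefSeq starts left out 10 (chosen after seeing the data), 5mC against unmethylated tags alone 21. Called higher, against 0: 12 with relative odds and 3 with limma. Without 1 library, 7 to 11 fell and 0 to 1 rose. Relative odds turned the sign of PSMA6 (0.89), PSMA1 (1.77), PSMB7 (1.55) and PSMD9 (1.75), log2 odds ratios, and leaving out sites shared with another gene that of MRPS18A (0.55). Start calls: 7 with relative odds, 8 at 20 tags, 9 within 1000 bp, 1 within 500 bp, and 0 to 8 without 1 library. The 5hmC calls were 0, but 1 with limma. The replicate block, for numbers that did not pair the samples (correlation 0.00605 to 0.0176), gave 10 body and 15 start calls and 0 for 5hmC.

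Pooled body 5mC differences, in points: members -3.62 as a mean of own shares (only members with at least 20 body or 10 start tags in every library), -4.16 without shared sites, -2.64 without PSMA8 and PSMB11 (chosen after seeing the data). As a mean of own shares, MRPS gave -1.88, PSMA -17.7, PSMB -0.27 and PSMD -3.35; without PSMA8 and PSMB11, PSMA gave -7.29 and PSMB -0.802. Start differences as a mean of own shares were 18.4 for MRPL, 17.7 for MRPS, -6.06 for PSMA and 1.26 for PSMC; without shared sites MRPL gave 16.9.

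Without 1 library at a time, body differences spanned -4.02 to -3.93 for members, -2.14 to -1.20 for MRPL, -1.40 to -0.494 for MRPS, -16.3 to -12.9 for PSMA, -4.99 to -3.97 for PSMB, -6.33 to -3.70 for PSMC and -3.17 to -2.74 for PSMD. Start differences spanned 13.6 to 15.9 for members, 17.7 to 18.2 for MRPL, 11.5 to 14.8 for MRPS, -4.24 to 14.3 for PSMA, 0.542 to 13.3 for PSMB, 14.8 to 24.7 for PSMC and 15.6 to 22.9 for PSMD. Member 5hmC spanned -0.537 to -0.359. The cause of these moves was not tested.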
